A study of Mus musculus with 16 samples.

Results

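Endothelial cells line blood vessels, and 8 genes that mark them were followed with the apelin receptor Aplnr and its ligand Apln in intervertebral discs of 16 mice. The 8 vessel markers were Pecam1, Cdh5, Kdr, Tek, Tie1, Emcn, Vwf and Eng. Together these are 10 of the 49315 genes in the expression table. Aplnr was chosen by its lower level in injured mutant discs than in injured wild-type discs, so that difference is described here without a test. The vessel markers and Apln were chosen by their known function to set beside it, with results of these data known. The question was whether Aplnr moved with the vessel markers.

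Each library came from 1 mouse, with 4 tail discs pooled, and was made by bulk RNA sequencing. The 4 groups were wild-type mice with intact discs (3 mice), wild-type mice with injured discs (4 mice), Adam8EQ mutants with intact discs (4 mice) and Adam8EQ mutants with injured discs (5 mice). Adam8 encodes a membrane-anchored metalloprotease. The labels give the allele name only, the title of the series mentions the inbred strain DBA, and the age of the mice, the kind of injury and the time after it were not given in the sources used here. Pooling 4 discs means that differences between discs of 1 tail were not measured.

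The disc is one of the most weakly vascularised tissues of the body. Vessels normally reach the outer annulus and the endplates, and vessel ingrowth is a known feature of injured or degenerating discs. In endothelial cells, cadherin-5 and PECAM-1 sit at cell junctions, and VEGF receptor 2 (Kdr) and the angiopoietin receptor Tie2 (Tek) transmit growth and stability signals. Apelin, a secreted peptide encoded by Apln, acts through Aplnr, a G protein-coupled receptor found on sprouting and venous endothelium and also on other cells, and Apln is a hypoxia-responsive gene typical of sprouting tip cells.

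Levels are TPM, a relative abundance in which reads are scaled by gene length and by the library's total. Each change is 1 group's mean of log2(TPM + 1) minus the other's, and on that scale changes of scarce transcripts come out too small. A gene was called when its Benjamini-Hochberg adjusted p from limma, taken over all 24188 genes tested, was under 0.05. The values implied 10218595 to 24876577 reads per library. All 10 genes passed the filter of 1 TPM in at least 3 libraries, and none was left out. Kdr was under 1 TPM in every intact library. Tek, Tie1, Emcn and Vwf reached 1 TPM in fewer than 3 intact libraries, so they and Kdr passed only through injured ones. Their injury differences, and their place in counts of called genes, are descriptions. The tissue label was checked against 12 measured disc and cartilage genes, whose summed level was 17900 to 21800 TPM in intact discs and 5410 to 22000 TPM in injured discs. In bulk tissue, fewer cells of a type and less RNA per cell cannot be told apart.

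All 10 genes are annotated as protein coding. On GRCm38, Aplnr (ENSMUSG00000044338) spans chromosome 2, 85136225 to 85139923, on the plus strand, and its annotated exon fills the whole span. Apln (ENSMUSG00000037010) lies on chromosome X, 48025146 to 48034853, minus strand. Pecam1 (ENSMUSG00000020717) lies on chromosome 11, 106654217 to 106750628, minus strand, and Cdh5 (ENSMUSG00000031871) on chromosome 8, 104101625 to 104144511, plus strand. Kdr (ENSMUSG00000062960) lies on chromosome 5, 75932827 to 75978458, minus strand. Tek (ENSMUSG00000006386) and Tie1 (ENSMUSG00000033191) are both on chromosome 4, Tek at 94739289 to 94874976 on the plus strand and Tie1 at 118471191 to 118490061 on the minus strand. Emcn (ENSMUSG00000054690) lies on chromosome 3, 137341067 to 137432185, plus strand, and Vwf (ENSMUSG00000001930) on chromosome 6, 125546774 to 125686679, plus strand. Eng (ENSMUSG00000026814) shares chromosome 2 with Aplnr, at 32646595 to 32682669 on the plus strand, and its exons overlap those of Fpgs on the opposite strand. Fpgs averaged 14.9 TPM, and whether reads were counted by strand was not given, so the level of Eng is uncertain.

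Sequence just before the start site was available from RefSeq on GRCm38.p6 for 6 of the 10 genes, and 4 stretches are shown because these genes varied together or stood apart in the results. ETS factors such as ERG drive much of endothelial transcription and bind around a GGAA core. Capitals mark AGGAAG or its reverse complement CTTCCT, searched on both strands, and bases inside annotated exons were left out. The stretches are Emcn chr3:137340828-137341066 (plus strand), Tie1 chr4:118490062-118490099 (minus strand), Kdr chr5:75978459-75978705 (minus strand) and Apln chrX:48034854-48035103 (minus strand), each 5′ to 3′.
Emcn: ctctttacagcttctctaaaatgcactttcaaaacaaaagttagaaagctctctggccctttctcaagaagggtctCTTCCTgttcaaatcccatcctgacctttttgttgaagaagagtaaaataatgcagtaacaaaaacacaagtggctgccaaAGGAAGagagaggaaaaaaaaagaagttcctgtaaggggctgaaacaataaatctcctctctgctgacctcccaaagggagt
Tie1: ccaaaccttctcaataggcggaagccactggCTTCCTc
Kdr: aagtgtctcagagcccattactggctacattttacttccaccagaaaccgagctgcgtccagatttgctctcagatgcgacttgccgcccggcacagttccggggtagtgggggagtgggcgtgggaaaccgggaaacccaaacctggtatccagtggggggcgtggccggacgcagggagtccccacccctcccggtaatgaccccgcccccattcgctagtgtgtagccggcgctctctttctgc
Apln: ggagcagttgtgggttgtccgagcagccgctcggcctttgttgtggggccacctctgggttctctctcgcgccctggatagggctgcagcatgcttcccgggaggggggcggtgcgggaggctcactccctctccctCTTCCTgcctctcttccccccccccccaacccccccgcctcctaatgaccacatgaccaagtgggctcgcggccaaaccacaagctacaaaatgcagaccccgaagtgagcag

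The full 250 bases before the start, with annotated exon bases kept in, held AGGAAG in 4 of the 6 genes (Apln, Emcn, Eng and Tie1). Of all 27025 promoters in the table, 29.2% held it. The longer form CCGGAAG was in 0 of 6 (7.05% of all), the GATA motif AGATAA in 0 of 6 (10.3%) and the hypoxia element core ACGTG in 0 of 6 (16.6%). These are matches of letters only. Kdr and Tek, which tracked the other vessel markers, had no match to AGGAAG. The shorter core GGAA, or its reverse complement TTCC, does occur before both genes and was not counted.

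The vessel markers were low in intact discs of both genotypes and varied widely in injured ones. The cell adhesion molecule Pecam1 was at 6.49, 2.02 and 3.36 TPM in the 3 intact wild-type mice and at 1.88, 1.36, 4.03 and 1.64 TPM in the 4 intact mutants. Injured wild-type mice 1 to 4 had 3.44, 5.17, 62.8 and 19.1 TPM, and injured mutants 1 to 5 had 4.41, 19.9, 3.59, 6.69 and 10.1 TPM. Injured wild-type mice 3 and 4 and injured mutant 2 stood highest, while injured wild-type mice 1 and 2 lay within the intact wild-type range.

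Cdh5, the junction cadherin that defines endothelium, was highest in the same 3 mice. It measured 4.2, 1.2 and 1.75 TPM in intact wild-type mice, 1.25, 0.225, 2.53 and 0.147 in intact mutants, 1.52, 3.88, 58.4 and 22.7 in injured wild-type mice and 3.57, 21.9, 2.84, 4.46 and 7.76 in injured mutants. All 5 injured mutants lay above all 4 intact mutants (30.8% of all genes tested were called in that comparison, and 27.2% did not overlap), whereas the wild-type groups overlapped. The receptor Kdr was listed at 0 in intact mutants 2 and 4 and at 0.0896 and 0.262 TPM in intact mutants 1 and 3. Its values in injured mutants were 1.4, 7.33, 0.983, 1.52 and 1.91 TPM, again with no overlap. In the wild type Kdr was at 0.865, 0.278 and 0.215 TPM in intact discs and at 0.284, 1.23, 17.3 and 5.97 TPM in injured discs, and these groups overlapped.

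The angiopoietin receptor pair followed. Tek was at 2.38, 0.133 and 0.905 TPM in intact wild-type mice and at 0.611, 1.49, 21.4 and 4.92 TPM in injured ones. In mutants Tek was at 0.343, 0.534, 1.32 and 0.592 TPM in intact discs and at 1.47, 6.68, 1.62, 2.21 and 3.73 TPM in injured discs. The mutant groups of Tek did not overlap, as for 27.2% of all genes, and the wild-type groups did. Tie1, the orphan relative of Tek, was at 2.83, 0.32 and 0.552 TPM in intact and 0.911, 1.36, 27.1 and 8.69 TPM in injured wild-type mice. In intact mutants it was at 0.658 and 1.38 TPM in mice 1 and 3 and listed at 0 in the same 2 mice as Kdr, and injured mutants had 0.912, 6.94, 1.49, 2.42 and 4.33 TPM. Both pairs of Tie1 groups overlapped.

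Emcn, a sialomucin of capillaries and veins, was at 1.44, 0.174 and 0.574 TPM in intact wild-type mice and at 0.355, 0.479, 13.5 and 4.8 TPM in injured ones. Intact mutants had 0.449, 0, 0.546 and 0.0573 TPM, and injured mutants had 1.28, 5.93, 0.34, 1.16 and 1.91 TPM. The groups overlapped in both genotypes, through injured mutant 3 and injured wild-type mice 1 and 2. Libraries held 0 to 242 implied reads of Emcn, 0 to 518 of Kdr and 0 to 442 of Tie1, so the lowest values rest on few reads.

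Vwf and Eng differed least with injury. Vwf, the clotting protein stored in endothelial granules, was at 1.5, 0.489 and 0.99 TPM in intact wild-type mice and at 0.658, 0.968, 9.26 and 2.14 TPM in injured ones. Intact mutants had 0.781, 0.587, 0.644 and 0.424 TPM and injured mutants had 1.36, 1.92, 0.4, 1.13 and 1.07 TPM, with injured mutant 3 lowest of all 9 mutants. Eng, the TGF-beta co-receptor endoglin, was the most abundant member, at several times the intact level of each other vessel marker. It was at 32.6, 34.5 and 28.6 TPM in intact and 31.4, 28.5, 128 and 75.0 TPM in injured wild-type mice, and at 37.0, 29.1, 44.2 and 29.8 TPM in intact and 55.5, 83.1, 40.2, 37.7 and 43.8 TPM in injured mutants. Its mean was 31.9 ± 3.01 TPM in intact wild-type discs (SD, n = 3) and 35.0 ± 7.12 in intact mutants (SD, n = 4), against 65.8 ± 46.7 (SD, n = 4) and 52.1 ± 18.6 TPM (SD, n = 5) after injury. Only injured wild-type mice 3 and 4 and injured mutants 1 and 2 exceeded every intact mouse.

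**Figure D1:**
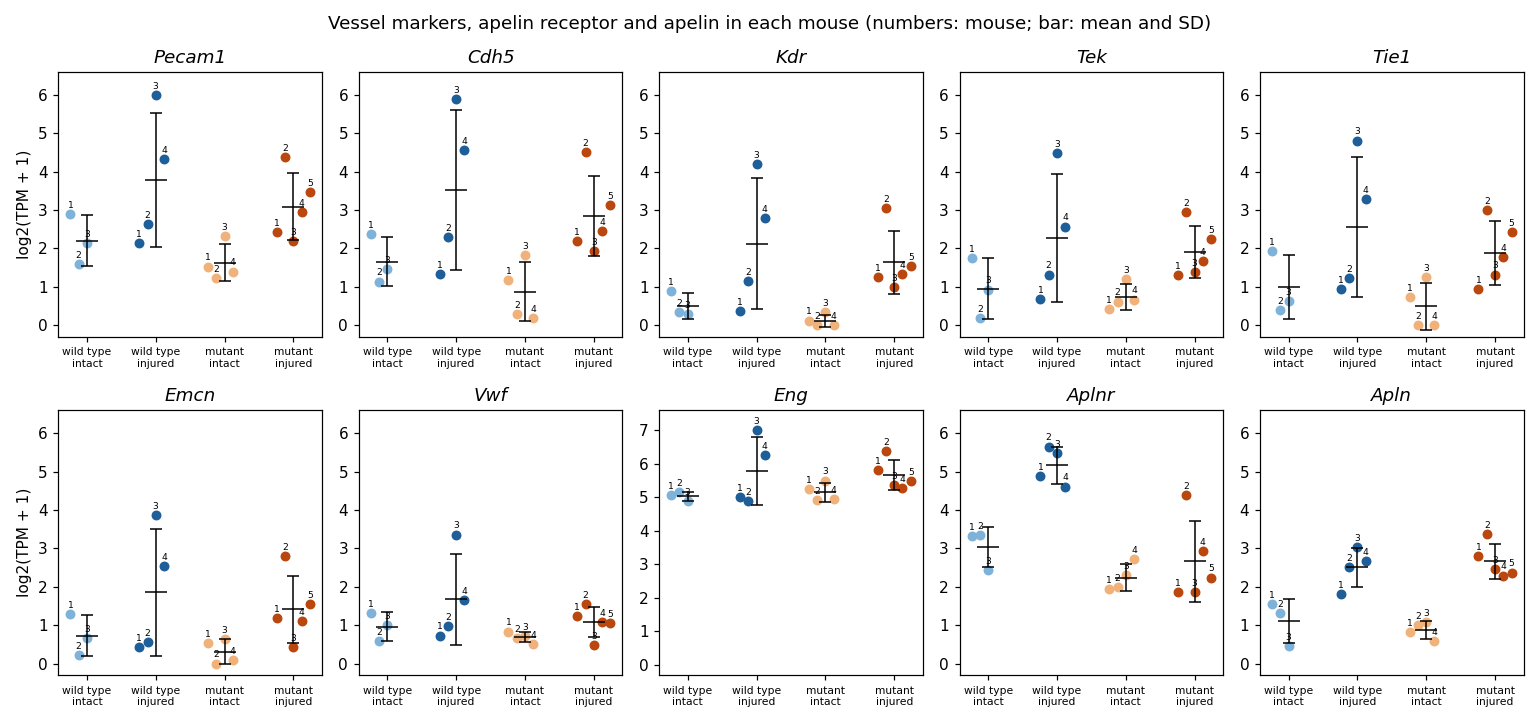
Level of each of the 10 genes (log2(TPM + 1), vertical axis) in every mouse, by group; each point is 1 mouse and the bar is the group mean. Injured wild-type mouse 3 has the highest value of each of the 8 vessel markers, while Aplnr lies at 23.3 to 49.2 TPM in all 4 injured wild-type mice.

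With injury, 8 of 8 vessel markers had a positive difference in each genotype, and none was called in either by limma (3 of 8 in mutants and 1 of 8 in the wild type had an unadjusted p under 0.05). limma's voom on the implied reads also called 0 of 8. In mutants the log2 differences ran from 0.40 (Vwf) to 1.98 (Cdh5), with a median of 1.29 against -0.0767 over all genes tested. The sizes depended on how low values were handled: with a pseudocount of 0.1 the median was 2.22 and Kdr reached 3.68, and with voom Kdr reached 5.08. Cdh5 differed by 1.98 ± 0.86 (SE, limma adjusted p 0.07012) and Pecam1 by 1.46 ± 0.72 (SE, limma adjusted p 0.1058). For Eng the limma adjusted p was 0.3009. Kdr differed by 1.52 ± 0.66 (SE), Tie1 by 1.39, Tek by 1.18, Emcn by 1.10 and Vwf by 0.40. These values are descriptions, because those genes passed the filter only through injured libraries. Of all genes tested, 30.8% were called for injury in mutants (13.1% higher and 17.7% lower), and 0 of the 8 vessel markers were among them. Of all calls 42.6% were higher, and this share was 47.9% with quantile normalization and 52.1% with median-of-ratios scaling.

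In the wild type the vessel markers differed with injury by 0.72 (Vwf) to 1.86 (Cdh5), with a median of 1.44 against 0.00905 over all genes. These values leaned on injured wild-type mouse 3: without it they ran from 0.16 (Vwf) to 1.07 (Cdh5), all 8 still positive, with Pecam1 at 0.83, Kdr at 0.93, Tek at 0.57 and Emcn at 0.46. Pecam1 differed by 1.57 ± 0.82 (SE, limma adjusted p 0.299). The background was low, with 0.116% of genes called. How far injury acted differently in the 2 genotypes (the interaction) ran from -0.31 to 0.11 over the 8 markers, 0 of 8 were called, and 0% of all genes were called by limma (1979 of 24188 had an unadjusted p under 0.05). No difference in vessel marker response between genotypes was detected with these numbers of mice.

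The spread between mice set these limits, and the count depended on single libraries and on the fit. When the mutants alone were fitted, without the variable injured wild-type group, 6 of the 10 genes were called (Pecam1, Cdh5, Kdr, Tek, Tie1 and Apln). With a pseudocount of 0.1, 4 were called (Cdh5, Kdr, Tie1 and Apln), beside 3259 of all 24188 genes called higher and 4252 called lower. Without injured wild-type mouse 3, which shares the estimate of the spread, 4 were called (Pecam1, Cdh5, Kdr and Apln), and without injured wild-type mouse 1, 3 were called (Cdh5, Kdr and Apln). In the main fit 30.8% of all genes were called, and the shares for the other fits are not given here. These counts are therefore not read as a result about the vessel markers. The calls of Kdr, Tek and Tie1 are descriptions, because these genes passed the filter only through injured libraries.

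Between genotypes in intact discs, 7 of 8 vessel markers were lower in mutants, by log2 differences of -0.79 to -0.22, and Eng differed by 0.11 ± 0.45 (SE). None was called by limma, each with an adjusted p of 1 and 0 of 8 with an unadjusted p under 0.05, and the background was 0.0165% of genes. Among other cell types the signs were mixed, with 0 genes called in any list: 9 of 9 muscle genes (median -1.30), 5 of 5 red cell genes (median -1.57) and 4 of 4 adipocyte genes (median -0.75) were lower in intact mutants, 5 of 5 bone cell genes (median 0.09), 4 of 6 platelet genes (median 0.08) and 7 of 12 disc genes (median 0.04) were higher, and the leukocyte median was -0.01. Intact wild-type mouse 1 had the highest mean log2 level of the vessel markers (2.19) of the 7 intact mice, and also the highest summed muscle (912 TPM) and adipocyte (59.1 TPM) genes. The part of these cells in the vessel marker values was not tested. In injured discs the mutant values were lower for 8 of 8 markers (-0.69 to -0.12), given as a description. Without injured wild-type mouse 3 the sign turned for 7 of 8, with values of 0.0507 (Pecam1), 0.0706 (Tie1), 0.12 (Cdh5), 0.20 (Kdr), 0.23 (Emcn), 0.28 (Eng) and 0.39 (Tek), and Vwf came to -0.0354.

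The 8 vessel markers varied together from mouse to mouse. Over the 16 libraries, the correlation between 2 of them ranged from 0.84 to 0.99 with a median of 0.95 over 28 pairs. Around the group means it ranged from 0.83 to 0.98, with a median of 0.93. These are descriptions, and the points share their libraries and depth.

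Aplnr was high in injured wild-type discs and near the intact level in 4 of 5 injured mutants. It was at 28.7, 49.2, 44.0 and 23.3 TPM in injured wild-type mice 1 to 4, and at 2.66, 20, 2.65, 6.68 and 3.73 TPM in injured mutants 1 to 5. Intact wild-type mice had 9.09, 9.18 and 4.4 TPM, and intact mutants had 2.84, 2.98, 3.91 and 5.61 TPM. All 4 injured wild-type mice lay above every other library, with mouse 4 at 23.3 TPM just above injured mutant 2 at 20 TPM.

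In descending order the group means were injured wild type (36.3 ± 12.2 TPM, SD, n = 4), intact wild type (7.56 ± 2.73, SD, n = 3), injured mutant (7.13 ± 7.36, SD, n = 5) and intact mutant (3.84 ± 1.28, SD, n = 4). Injured wild-type discs stood apart from the rest, and each of the other neighbouring groups in that order overlapped. Aplnr differed by -2.50 ± 0.48 (SE, log2) between injured mutants and injured wild-type discs, a 5.65-fold difference in TPM + 1, and this is the difference on which it was selected. The background of that comparison was 0.918% of genes called, from which nothing is read for Aplnr.

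The libraries that did not choose Aplnr are the intact ones. There the mutant values differed from the wild-type values by -0.80 ± 0.55 on the log2 scale (SE, limma adjusted p 1), the ranges overlapped, and the difference was within the spread between mice. With injury Aplnr differed by 2.12 ± 0.55 (SE) in the wild type, where 4 of 4 injured mice were above 3 of 3 intact mice (15.6% of all genes did not overlap, and 0.116% were called), and by 0.42 ± 0.48 (SE) in mutants. The injury differences themselves differed by -1.70 ± 0.73 (SE). All 3 values are descriptions, because injured libraries chose the gene. The mutant difference rested on injured mutant 2: without that mouse it was -0.00882.

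Apln, the ligand, had higher values in injured than in intact discs of both genotypes. It measured 0.771, 0.999, 1.13 and 0.492 TPM in intact mutants and 6.03, 9.34, 4.47, 3.87 and 4.18 TPM in injured mutants, with no overlap (as for 4 of the 10 genes and 27.2% of all genes tested). In the wild type it measured 1.94, 1.5 and 0.369 TPM in intact discs and 2.54, 4.7, 7.17 and 5.41 TPM in injured discs, again with no overlap (0.116% of genes were called in that comparison, and 15.6% did not overlap). It rose by 1.79 ± 0.30 with injury in mutants (SE, limma adjusted p 0.001156), a 3.45-fold rise in TPM + 1, and was the only one of the 10 genes called there, against 30.8% of all genes. In the wild type the difference was 1.40 ± 0.34 (SE, limma adjusted p 0.1133) and was not called. Without injured wild-type mouse 1 it was 1.63 ± 0.33 (SE, limma adjusted p 0.03641).

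In mutants the call of Apln held under each of the 27 alternatives in which it was tested, with log2 changes of 1.61 to 2.59. At these low levels a library held 3 to 110 implied reads of Apln. Between genotypes Apln differed by 0.15 ± 0.30 (SE) after injury and by -0.24 ± 0.34 without it (SE, limma adjusted p 1), and no difference was detected. The injury effects differed by 0.38 ± 0.45 (SE, limma adjusted p 0.846). Group means were 5.58 ± 2.26 TPM in injured mutants (SD, n = 5), 4.96 ± 1.92 in injured wild type (SD, n = 4), 1.27 ± 0.81 in intact wild type (SD, n = 3) and 0.847 ± 0.279 in intact mutants (SD, n = 4). In that order the 2 injured groups overlapped, as did the 2 intact groups. Apela, the other known ligand of Aplnr, was at 0 to 0.3 TPM and was not tested.

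**Figure D2:**
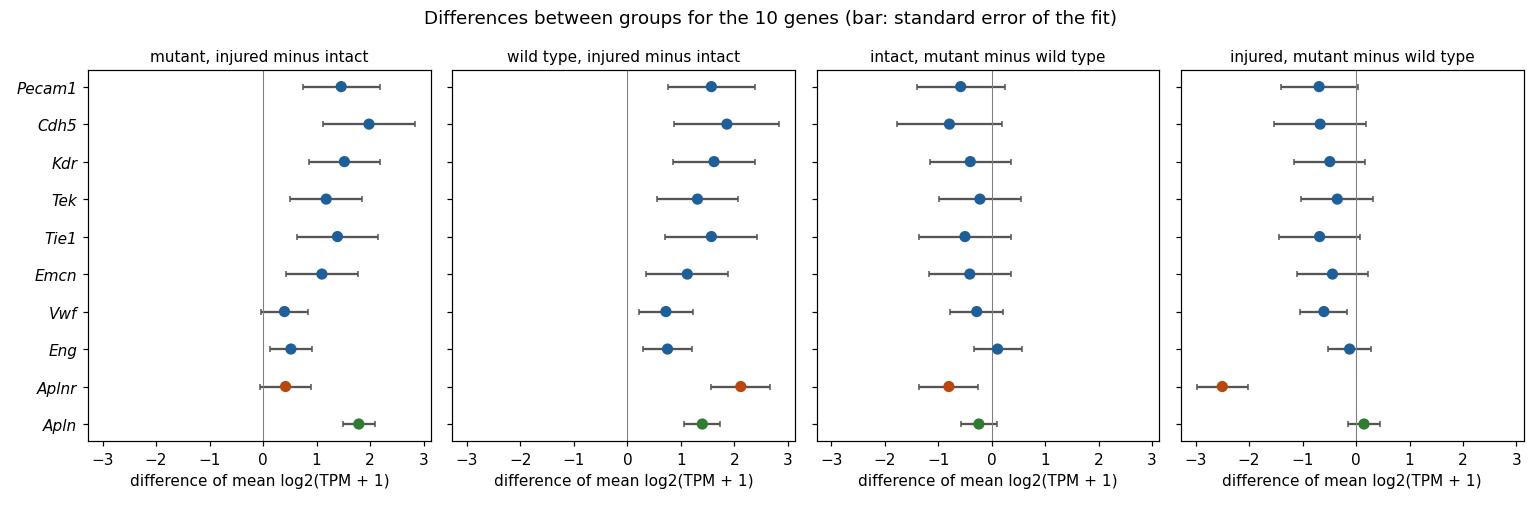
Difference of mean log2(TPM + 1) of each of the 10 genes (horizontal axis; bars are standard errors) for injury in mutants, injury in wild type and genotype in intact and in injured discs. Aplnr (orange) sits at -2.50 between genotypes in injured discs, the 8 vessel markers (blue) lie between -0.69 and -0.12, and Apln (green) is at 0.15.

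Aplnr and the vessel markers parted in some mice and not in others. The mean log2(TPM + 1) of the 8 markers was 1.46 and 1.88 in injured wild-type mice 1 and 2, within the intact range of 0.97 to 2.19, and 4.95 and 3.5 in mice 3 and 4. Yet Aplnr was high in all 4. Ranked from the highest of the 16 libraries, injured wild-type mouse 1 was 12th for vessel markers and 3rd for Aplnr, and mouse 2 was 8th and 1st. The opposite held in some mutants: injured mutant 5 was 4th for vessel markers and 12th for Aplnr, and injured mutant 1 was 7th and 15th. The mice richest in vessel markers were also high for Aplnr. Injured wild-type mouse 3 was 1st for vessel markers and 2nd for Aplnr, injured mutant 2 was 2nd and 5th, and injured wild-type mouse 4 was 3rd and 4th.

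The log2 level of Aplnr minus the vessel mean put this in 1 value per mouse. It was 3.44, 3.77, 0.54 and 1.11 in injured wild-type mice and -0.17, 0.81, 0.10, 0.73 and -0.37 in injured mutants. In intact discs it was 1.14, 2.14 and 0.94 in the wild type and 0.62, 1.03, 0.57 and 1.75 in mutants. Injured wild-type mice 1 and 2 were the highest of all 16, while mice 3 and 4 overlapped the other groups. The group means were 2.21 ± 1.63 (SD, n = 4) in injured wild type, 0.22 ± 0.53 (SD, n = 5) in injured mutants, 1.41 ± 0.65 (SD, n = 3) in intact wild type and 0.99 ± 0.54 (SD, n = 4) in intact mutants.

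Between injured groups the difference of this quantity was -1.99, made of -2.50 for Aplnr and -0.51 for the vessel markers. In intact discs the same split was -0.80 for Aplnr and -0.38 for the vessel markers. With injury, mutants showed 0.42 for Aplnr against 1.19 for the vessel markers, and the wild type showed 2.12 against 1.32. Because Aplnr was chosen on the injured difference, these are descriptions. Leaving out 1 injured mouse at a time kept the injured value between -2.55 and -1.47. The TPM of Aplnr per TPM of Pecam1 was 8.34, 9.5, 0.7 and 1.22 in injured wild-type mice and 0.37 to 1.0 in injured mutants.

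**Figure D3:**
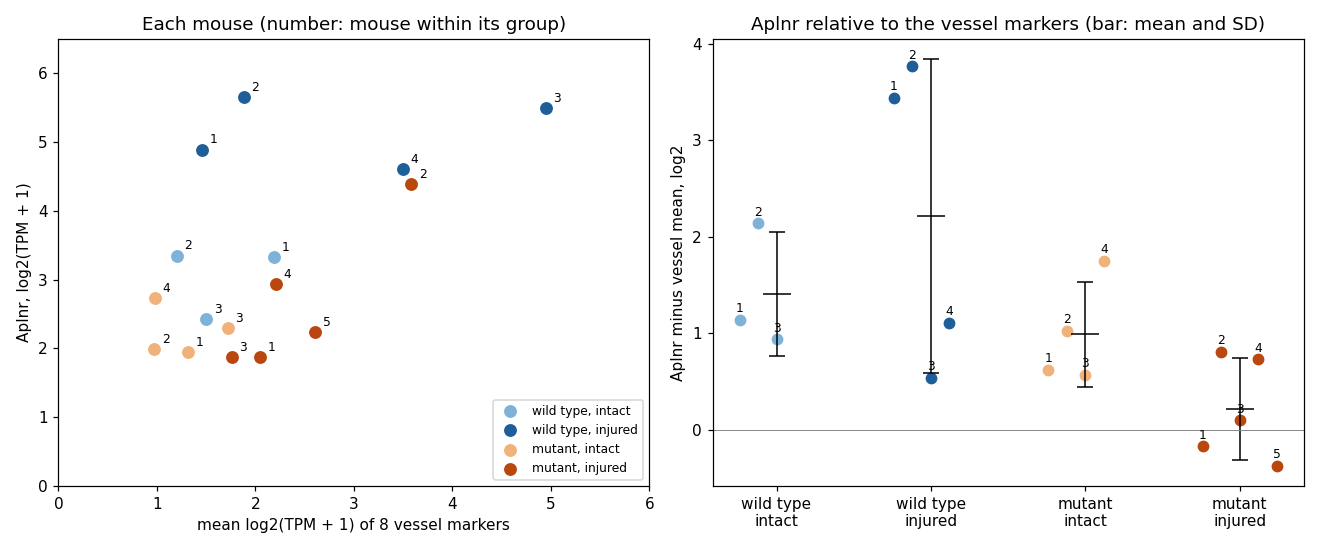
Aplnr (vertical axis) against the mean of the 8 vessel markers (horizontal axis), both as log2(TPM + 1), with 1 point per mouse coloured by group. Injured wild-type mice 1 and 2 lie high at vessel means of 1.46 and 1.88. Injured mutants 1, 3, 4 and 5 lie low, at 1.87 to 2.94 for Aplnr, across vessel means of 1.76 to 2.61. Injured mutant 2 lies higher, at 4.39 for Aplnr and a vessel mean of 3.58.

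Between mice of 1 group, where the difference that chose Aplnr does not enter, Aplnr was compared with Cdh5 as deviations from the group means. Pearson's r was 0.364 (permutation p 0.1691) and Spearman's rho 0.171 (permutation p 0.5579), two-sided, n = 16, so no relation was detected. Without the 2 libraries farthest from the median of Cdh5, injured wild-type mice 3 and 4, r was 0.649 (permutation p 0.05527, n = 14) and rho 0.411 (permutation p 0.1858). Without injured mutant 2, r was 0.066 (permutation p 0.8242, n = 15), so the positive value rested on that mouse. With Pecam1 in place of Cdh5, r was 0.399 (permutation p 0.1377) and rho 0.241 (permutation p 0.4116), n = 16. Adjusted over these 2 relations, the permutation p was 0.1691 for both r and 0.5579 for both rho.

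Over all 16 libraries, as a description with no p, Aplnr correlated with the other 9 genes at a Pearson's r of 0.38 (Eng) to 0.60 (Pecam1), values above those of 87.2% to 98.5% of all tested genes. Spearman's rho was lower, at -0.01 to 0.45. The vessel markers among themselves were at an r of 0.84 or above. Over the 9 injured libraries alone r was 0.13 (Apln) to 0.48 (Vwf). All pairs share libraries and depth, and the groups enter these values.

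The genes most like Aplnr over the 16 libraries, by Pearson's r of log2(TPM + 1) among the 11936 named genes that averaged 5 TPM or more, were Myc, a growth-promoting transcription factor (r 0.888, rho 0.888), Rnf144a (0.872), Pik3r3 (0.825), the cytokine receptor kinase Jak3 (0.82), Slc38a6 (0.817), Adgrl2 (0.814), Card6 (0.799) and Rack1 (0.791). Mean levels of Myc were 41.4 TPM in intact wild type, 61.1 in injured wild type, 27 in intact mutants and 36.8 in injured mutants. Around the group means the 5 most alike genes were Atg2a (0.897), Washc2 (0.89), Eml2 (0.863), the elastic fibre protein Fbln5 (0.859) and Kif21b (0.856). Being the highest of so many genes, these values are descriptions.

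Other endothelial genes had calls in both directions after injury in mutants, though most pan-endothelial genes had a positive difference. Of 22 further pan-endothelial genes, 2 were called higher and 1 lower, against 13.1% and 17.7% of all genes, with a median log2 change of 0.74. The difference was positive for 19 of 22 in mutants and for 19 of 22 in the wild type. Of all genes tested, 44.4% and 51% were positive. S1pr1, a sphingosine 1-phosphate receptor of endothelium that lymphocytes also carry, rose by 2.89 ± 0.68 (SE, limma adjusted p 0.00406). Its mean was 2.34 ± 1.58 TPM in intact mutants (SD, n = 4) and 25.4 ± 16.7 TPM in injured mutants (SD, n = 5). Ecscr, an endothelial surface protein, rose by 1.95 ± 0.59 (SE, limma adjusted p 0.01498). Ramp2, a receptor-modifying protein that partners with Calcrl, fell by 1.37 ± 0.25 (SE, limma adjusted p 0.001077). Its mean was 143 ± 41.0 TPM in intact mutants (SD, n = 4) and 54.8 ± 14.4 TPM in injured mutants (SD, n = 5). Ramp2 was far above Cdh5 in intact discs, where Cdh5 averaged 1.04 TPM in mutants and 2.38 TPM in the wild type. Median-of-ratios scaling or quantile normalization called 4 of these genes higher and 1 lower.

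Among 8 tested capillary and venous genes, 3 rose and 2 fell (median 1.66), and 13.1% and 17.7% of all genes did so. The fatty acid receptor Cd36, which macrophages also express, rose by 4.09 ± 0.91 (SE, limma adjusted p 0.002786), the fenestral diaphragm protein Plvap by 2.53 ± 0.90 (SE, limma adjusted p 0.0294) and the water channel Aqp1 by 1.63 ± 0.47 (SE, limma adjusted p 0.01122). The call of Plvap was lost in 6 of 28 alternatives. The venous regulator Nr2f2 fell by 0.86 ± 0.19 (SE, limma adjusted p 0.004014) and its venous companion Ephb4, an ephrin receptor, by 0.70 ± 0.17 (SE, limma adjusted p 0.006307). Both are also expressed outside vessels.

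Of the pan-endothelial, capillary and venous, arterial and tip cell, and lymphatic lists, Nr2f2 was the only gene called between genotypes in injured discs. Of all genes 0.918% were called there, 176 lower in mutants and 46 higher, and with median-of-ratios scaling 84 lower and 76 higher. Nr2f2 was lower in mutants by a log2 difference of -0.91 ± 0.19 (SE, limma adjusted p 0.0377). Its group means were 16.6 ± 1.69 TPM in injured wild-type discs (SD, n = 4) and 8.57 ± 2.43 TPM in injured mutants (SD, n = 5). Whether this call held under the alternatives was not examined.

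Of 8 arterial and tip cell genes, 1 rose and 1 fell in mutants, near the 13.1% and 17.7% of all genes that did so. Efnb2, the arterial ephrin, rose by 0.86 ± 0.29 (SE, limma adjusted p 0.03518) and Flt1, a decoy receptor for VEGF, fell by 0.66 ± 0.20 (SE, limma adjusted p 0.02183). These calls were lost in 8 of 27 alternatives for Efnb2 and 5 of 28 for Flt1. Of 4 tested lymphatic genes, beside the same shares of all genes, Pdpn rose by 2.07 (limma adjusted p 0.02857) and Reln fell by 2.2 (limma adjusted p 0.003965). Prox1 differed by 0.69, given as a description, because it passed the filter on low values through injured mutants. Its mean was 0.926 TPM there, 0.191 in intact mutants, 0.352 in injured wild type and 0.113 in intact wild type. Pdpn and Reln are also made by other cells. In the wild type limma called 0 genes of these 4 lists, beside a background of 0.116%, and 6 of 22 pan-endothelial, 6 of 8 capillary and venous, 1 of 8 arterial and 1 of 4 lymphatic genes had an unadjusted p under 0.05. The list medians were 0.81, 1.94, 0.15 and -0.17. In intact discs between genotypes 0 were called as well, and 1 of the 22 pan-endothelial genes and 0 of the others had an unadjusted p under 0.05.

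**Figure D4:**
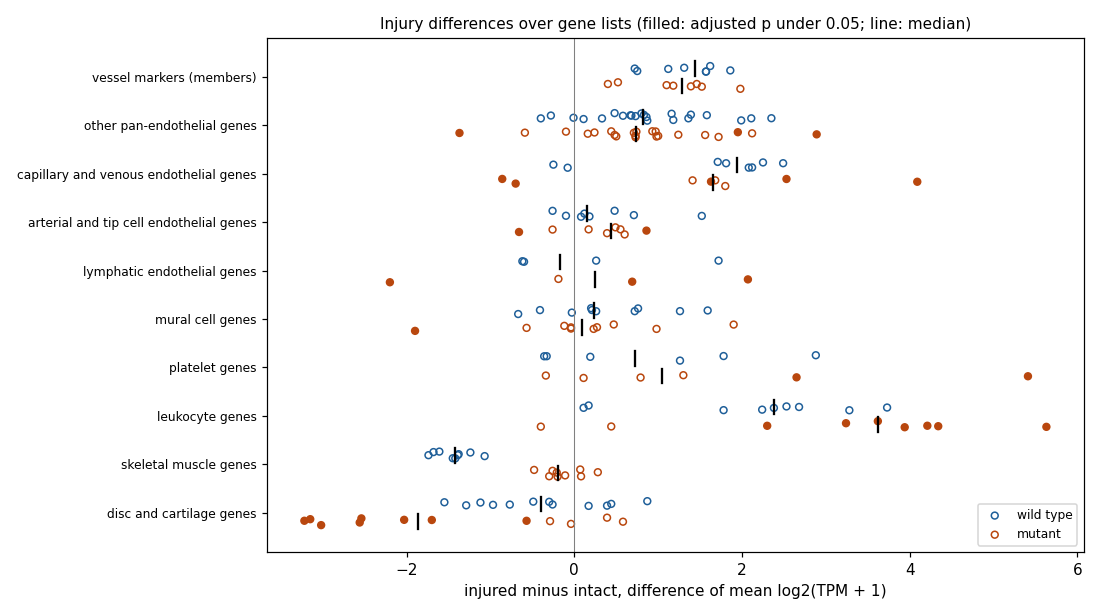
Injury difference in log2(TPM + 1) (horizontal axis) of each gene of the marker lists in mutants and in wild type; filled points are genes with a limma adjusted p under 0.05, lines are list medians, and points are spread vertically only for view. The leukocyte list reaches a median of 3.62 in mutants with 7 of 9 genes called, against 30.8% of all genes. No gene of these lists is called in the wild type, against 0.116% of all genes.

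Leukocyte genes were highest in the 3 mice with the highest vessel markers, while platelet and red cell genes followed a different order. The summed level of the leukocyte genes was 122 to 168 TPM in the 7 intact libraries. It was 197, 328, 3320 and 2200 TPM in injured wild-type mice 1 to 4, and 1720, 7450, 1030, 2150 and 622 TPM in injured mutants 1 to 5. The 3 highest mice, injured mutant 2 and injured wild-type mice 3 and 4, were also highest for the vessel markers, whose summed level was 39.2, 43.1, 338 and 143 TPM in injured wild-type mice and 69.9, 154, 51.5, 57.3 and 74.6 TPM in injured mutants. The neutrophil gene Ly6g and the T cell gene Cd3e did not pass the filter on low values. Of the 9 leukocyte genes tested, 7 were called higher in mutants (median 3.62), against 13.1% of all genes. They were led by Lyz2, a lysozyme of myeloid cells, at 5.63 (limma adjusted p 0.001066). S100a8, a neutrophil protein, differed by 4.34. That value is a description, because S100a8 passed the filter on low values only through injured libraries. Ptprc, also counted among the 7, passed in the same way. S100a8 averaged 0.113 TPM in intact mutants and 0.616 TPM in intact wild-type discs, so the size of its change is imprecise.

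Of 6 platelet genes 2 rose in mutants, where 13.1% of all genes did, both of them platelet chemokines. Pf4 rose by 5.41 (limma adjusted p 0.0006195). Ppbp differed by 2.65, given as a description, because it passed the filter on low values only through injured libraries. Pecam1 and Vwf are made by platelets or leukocytes as well as by endothelium. The summed level of the platelet genes was highest in injured mutant 2 (431 TPM) and injured wild-type mouse 3 (186 TPM), but injured wild-type mouse 4, with 83.5 TPM, lay below injured mutants 1, 3 and 4 (176, 149 and 161 TPM). None of 5 red cell genes was called (median 1.24). Their summed level was highest in injured wild-type mouse 3 (1470 TPM) and injured mutant 4 (1180 TPM), then in intact wild-type mouse 1 (728 TPM), injured wild-type mouse 4 (725 TPM) and injured mutant 2 (533 TPM). The part of blood cells in the vessel marker values was not tested. Aplnr and the leukocyte genes parted in individual injured mice: Aplnr was 49.2 TPM in injured wild-type mouse 2, which had 328 TPM of leukocyte genes, and 2.66 TPM in injured mutant 1, which had 1720 TPM.

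Mural cells, the pericytes and smooth muscle that wrap vessels, gave no shared change. Of 10 mural genes, 5 had a positive injury difference in mutants (range -1.90 to 1.90, median 0.10) and 7 in the wild type (-0.67 to 1.59, median 0.24). For injury in mutants 1 was called, against 30.8% of all genes: Myh11, the smooth muscle myosin, fell by 1.90 ± 0.35 (SE, limma adjusted p 0.00125). Myh11 was also lower in mutants than in the wild type after injury, by a log2 difference of -1.66 ± 0.35 (SE, limma adjusted p 0.03388). In that comparison 0.918% of all genes were called, and whether the call held under the alternatives was not examined. Disc and cartilage genes moved the other way in mutants, with 8 of 12 called lower, against 17.7% of all genes, and a median of -1.86. Among them Cnmd, an angiogenesis-inhibiting protein of cartilage, fell by 3.22 (limma adjusted p 0.004411) and T, the notochord transcription factor brachyury, fell by 3.15 (limma adjusted p 0.01782).

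Of the other tissues that a disc sample can carry, skeletal muscle (9 genes), adipocyte (4 genes) and Schwann cell (5 genes) lists had 0 genes called for injury in mutants, with medians of -0.20, 0.12 and 0.79. Of 5 tested bone cell genes 1 was called, Ctsk, which rose by 0.97 (limma adjusted p 0.009258), where 13.1% of all genes rose. Of 2 keratinocyte genes Krt1 differed by -0.69. That value is a description, because Krt1 passed the filter on low values through intact libraries, where it was higher. The library names give a further division of the mutants, A8 or M at the start of the name, whose meaning was not given. Within it the injury difference of Cdh5 was 2.62 (2 against 2 mice) and 1.5 (3 against 2), that of Apln 2.18 and 1.54, and that of Aplnr 1.16 and -0.16. Injured mutant 2 is in the A8 set. All wild-type names begin with D, so naming and genotype cannot be told apart there.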

How the data were processed

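RNA from 4 pooled tail discs per mouse was sequenced in 16 mice. Trizol extraction, FastSelect depletion of ribosomal RNA and the NEBNext Ultra II kit were used, per the labels' protocols, although the molecule field reads polyA RNA. The authors deposited 1 table of TPM values. Per the submitters' processing notes, bcl2fastq 2.20 and the GRCm38 build were used; aligner, counting, strand and annotation are not given in the sources used here. Each column sums to 1000000. Positions came from GENCODE M21, which held 99.3% of identifiers. Values below 20 implied reads were within 0.05 of a whole read in 94.0% to 94.9% of cases; the implied depth is approximate and gave no intervals.

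The 24188 genes that reached 1 TPM in 3 or more libraries were fitted with limma 3.58.1 in R 4.3.3 (eBayes with trend) on log2(TPM + 1), all 16 libraries in 1 fit with 4 group means, threshold 0.05. Errors are between mice, and the fit was tested on simulated data. Correlations used scipy 1.17.1 with 100000 permutations. The members and lists were chosen with earlier results of these data known. The named genes were all members, the 2 largest called rises and falls of each list (Aqp1 was added after its values were seen), and the 8 and 5 genes most like Aplnr. Groups share mouse numbers, but the mice are different animals, so no pairing entered the test. Alternatives are given in the closing section.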

Additional observations from a re-analysis of the deposited data

Results flagged for a closer look

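Kdr in injured mutant mouse 2 was at 7.33 TPM, far above the other 4 injured mutants. On the log2(TPM + 1) scale its gap to the next mouse was 0.733 of the group's range, over the critical value of 0.71 for 5 samples. It was the only such value among 30 sets of 1 member in 1 group that were examined, and chance gives about 1 in 20. The same mouse also had the highest Pecam1, Cdh5, Tek, Tie1, Emcn, Vwf, Eng, Aplnr and Apln of the injured mutants.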

How the results depend on the processing

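The number of the 10 genes called for injury in mutants (1, Apln) was 4 with a pseudocount of 0.1, 6 with only the groups compared, 0 with a filter at a mean of 5 TPM, where Apln was not tested, and 2 (Kdr and Apln) without injured wild-type mouse 3 and injured mutant 2 together, a choice made after seeing the data. In the main fit 30.8% of all genes were called there, and with the pseudocount of 0.1, 3259 were called higher and 4252 lower. Shares for the other settings are not given here, so these counts are not read as a result about the 10 genes. Calls of Kdr are descriptions, because it passed the filter only through injured libraries. Leaving out 1 mouse at a time gave a count of 1 to 4. For injury in the wild type (0 called) it gave 0 to 1: Apln without injured wild-type mouse 1, and Aplnr, chosen on these libraries, without injured mutant 2. For genotype in intact discs and for the difference between injury effects it gave 0 throughout. Signs turned for Aplnr with injury in mutants (-0.00882 without injured mutant 2, and also without both mice above; 0.62 at most as single mice were left out). Among uncalled intact genotype differences they turned for Tek (-0.61 to 0.18 as single mice were left out, 0.18 without intact wild-type mouse 1) and for Eng (-0.00433 to 0.19, the lowest without intact mutant 3, and -0.22 with a muscle score as covariate). With a replicate block 1 gene was called for injury in mutants and 0 in the wild type; same-numbered mice correlated at -0.217 to 0.151 and 3 of 16 libraries were closest to their own number, so the numbers were not taken as pairs, and the block changed no call of a member. Aplnr against Cdh5 gave r from 0.066 to 0.473 as single mice were left out. The fit of only the groups compared was not run for the difference between injury effects, which needs all groups. Genes under about 1 TPM in intact discs, such as Kdr and Emcn, rest on few reads, so their changes are imprecise.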

Other observations

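Within 2 Mb on either side of Aplnr, a window chosen after its values were seen, 26 genes averaged 1 TPM or more, and limma called 0 of them between genotypes in intact or in injured discs (the unadjusted p was under 0.05 for 1 and 3 of them). Their median log2 difference, mutant minus wild type, was 0.05 in intact discs (-2.03 to 0.78, 9 of 26 negative) and -0.03 in injured discs (-1.3 to 0.89, 17 of 26 negative).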
